A study of Caenorhabditis elegans with 2 samples.

Results

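Of the 612 nuclear tRNA genes in the Ensembl annotation of WBcel235, the assembly also called ce11, 322 do not lie fully within the span of any protein-coding gene and are described here. The other 290 sit inside protein-coding genes. Of the 322, 319 overlapped no protein-coding gene at all and 3 overlapped one in part. The rule that picks them uses only the annotation and no peak, though it was proposed with earlier results of these data known. A tRNA gene was called occupied in a peak list when a summit, the highest point of a peak, lay no more than 200 bp from it. All 322 matched a RefSeq tRNA gene in span and strand, and RefSeq gave an amino acid (the isotype) for all but 2. The genes were 159 on the plus and 163 on the minus strand, 17 had an intron, and 180 were on chromosome X and 142 on the autosomes.

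The peaks come from chromatin immunoprecipitation and sequencing (ChIP-seq) of ZTF-16, a zinc-finger protein of the nematode Caenorhabditis elegans, with an antibody against GFP. Strain OP558 (unc-119(tm4063) III; wgIs558) carries an integrated transgene for ZTF-16 tagged C-terminally with GFP and FLAG, so the tagged protein, in 1 transgenic line, stands for ZTF-16. Mixed-sex late embryos, used whole, were collected 5 hours after egg bleaching, which mixes all cell types. There were 2 biological replicates of 1 group and no second condition, and no peak list from animals without the tagged protein was analysed, so whether any pattern is particular to ZTF-16 was not tested. Relaxed lists of 21235 peaks (replicate 1), 18242 (replicate 2) and 14968 (both pooled) can hold background. The 822 pooled peaks with the highest signal form the list thresholded by the irreproducible discovery rate (IDR). The signal value is the authors' own and is compared only within a list, read numbers are unknown, and intervals are Wilson 95% intervals that cover counting error over genes or peaks only.

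tRNA genes are transcribed by RNA polymerase III. Their promoter lies inside the gene: the factor TFIIIC recognises the A box near the start of the transcribed sequence and the B box further on, and then places TFIIIB just upstream of the gene, which recruits the polymerase. Transcription ends at a run of T downstream. Most tRNA genes exist in several identical copies, and identical gene bodies can have unlike flanks.

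Sequences of 5 of the strongest occupied tRNA genes are printed to show these elements beside the peaks. Each is given 5′ to 3′ on the transcribed strand in ce11, from 30 bases before the annotated gene to 20 after it, with the A box and the core of the B box in capitals. They lie at X:13665525-13665693 (C04A11.t1, plus strand), V:12002146-12002280 (F57F5.t1, plus), X:6292258-6292379 (T07H6.t2, minus), X:14115661-14115783 (F28H6.t1, plus) and X:15742020-15742153 (ZK678.t1, plus).
C04A11.t1: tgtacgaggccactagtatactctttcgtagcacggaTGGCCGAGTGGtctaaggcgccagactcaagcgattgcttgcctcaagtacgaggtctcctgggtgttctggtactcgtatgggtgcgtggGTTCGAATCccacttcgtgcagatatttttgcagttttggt
F57F5.t1: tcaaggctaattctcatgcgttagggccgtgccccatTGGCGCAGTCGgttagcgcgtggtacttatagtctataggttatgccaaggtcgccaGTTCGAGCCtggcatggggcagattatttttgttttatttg
T07H6.t2: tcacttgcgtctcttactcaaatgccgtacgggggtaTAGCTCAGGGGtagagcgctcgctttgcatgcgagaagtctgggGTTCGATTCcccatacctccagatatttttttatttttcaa
F28H6.t1: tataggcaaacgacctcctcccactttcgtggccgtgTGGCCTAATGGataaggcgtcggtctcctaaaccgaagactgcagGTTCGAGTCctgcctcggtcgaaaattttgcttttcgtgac
ZK678.t1: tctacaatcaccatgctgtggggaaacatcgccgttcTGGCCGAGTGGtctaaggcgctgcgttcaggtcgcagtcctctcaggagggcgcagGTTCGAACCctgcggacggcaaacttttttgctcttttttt

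Identical gene bodies were found both with and without a peak, and a tRNA-Pro family and a tRNA-Ala pair are printed to show it. F46G11.t2 (X:5801191-5801312, minus strand), ZK899.t1 (X:9467709-9467830, minus) and T23F1.t2 (V:15465205-15465326, minus) were occupied in the IDR-thresholded list, whereas F23D12.t2 (X:14437853-14437974, minus) and Y7A5A.t3 (X:15796603-15796724, minus) had a summit in no list. The 5 gene bodies are the same and only the flanking bases differ. Y37A1B.t1 (IV:14013785-14013906, minus), a tRNA-Ala gene with the same body as T07H6.t2 above, had a pooled peak that was not in the IDR-thresholded list.
F46G11.t2: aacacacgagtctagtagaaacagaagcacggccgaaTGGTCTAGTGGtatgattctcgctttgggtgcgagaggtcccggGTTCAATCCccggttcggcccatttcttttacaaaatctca
ZK899.t1: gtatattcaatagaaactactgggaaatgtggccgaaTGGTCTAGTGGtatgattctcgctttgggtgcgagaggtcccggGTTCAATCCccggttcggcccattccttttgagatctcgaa
T23F1.t2: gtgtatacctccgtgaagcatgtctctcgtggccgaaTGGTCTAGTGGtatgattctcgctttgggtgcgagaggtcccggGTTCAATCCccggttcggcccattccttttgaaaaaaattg
F23D12.t2: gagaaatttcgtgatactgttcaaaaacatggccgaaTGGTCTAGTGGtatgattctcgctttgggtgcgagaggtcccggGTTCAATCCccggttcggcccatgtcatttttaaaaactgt
Y7A5A.t3: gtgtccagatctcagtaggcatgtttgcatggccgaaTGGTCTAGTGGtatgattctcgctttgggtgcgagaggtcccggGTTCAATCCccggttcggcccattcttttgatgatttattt
Y37A1B.t1: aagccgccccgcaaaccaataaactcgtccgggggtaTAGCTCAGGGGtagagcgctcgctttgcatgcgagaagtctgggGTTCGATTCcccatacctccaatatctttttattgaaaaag

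ZTF-16 summits lay at 94 of the 322 tRNA genes in the IDR-thresholded list (29.2%, interval 24.5 to 34.4). The count was 175 (54.3%) in the relaxed pooled list, 181 (56.2%) in replicate 1 and 170 (52.8%) in replicate 2. As background, the genome was divided into consecutive tiles of 472 bp, the median gene length plus 200 bp on each side. Of these 212439 tiles, 0.380% held an IDR-thresholded summit, 6.72% a pooled summit, 9.45% a replicate 1 summit and 8.18% a replicate 2 summit. Among all 612 nuclear tRNA genes the occupied shares were 27.6%, 56.5%, 58.7% and 52.8% in the same 4 lists. No summit of any list reached 118 of the 322 genes (36.6%). The IDR-thresholded list reached 94, the relaxed pooled list 81 more and a replicate list alone the last 29.

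Occupied shares were close to those of tRNA genes inside protein-coding genes. There, 75 of 290 genes (25.9%, interval 21.2 to 31.2) had an IDR-thresholded summit, 171 (59%) a pooled, 178 (61.4%) a replicate 1 and 153 (52.8%) a replicate 2 summit. The difference, genes between minus genes inside protein-coding genes, was 3.33 percentage points in the IDR-thresholded list (Newcombe 95% interval -3.78 to 10.33), -4.62 in the pooled list (-12.37 to 3.24), -5.17 in replicate 1 (-12.86 to 2.64) and 0.04 in replicate 2 (-7.83 to 7.91). All 4 intervals include 0. The difference was not tested further, because tRNA genes share sequences and summits and are not independent.

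**Figure D1:**
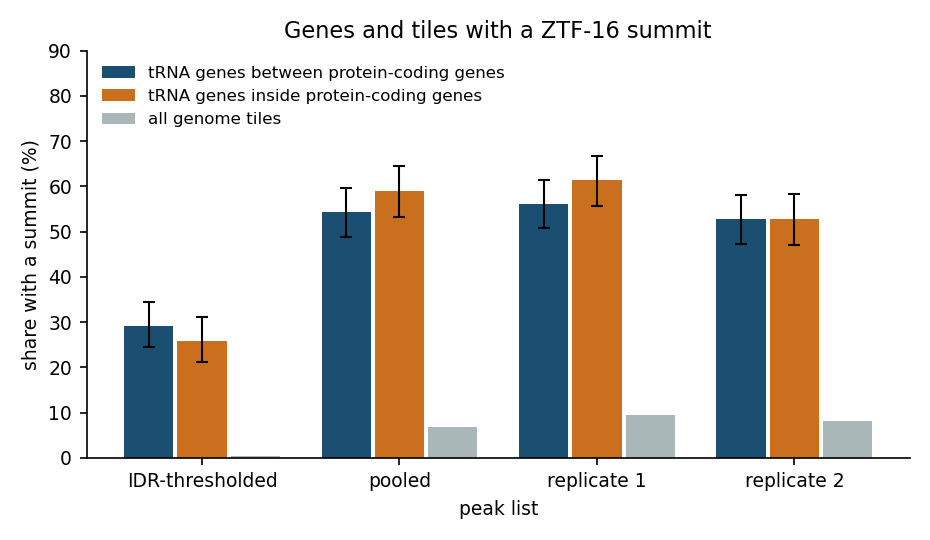
Share of genes, or of 472 bp genome tiles, with a summit (y axis, %) in each of the 4 peak lists (x axis). Bars stand for tRNA genes between protein-coding genes (n = 322), tRNA genes inside protein-coding genes (n = 290) and all tiles, with Wilson 95% intervals on the genes; both kinds of tRNA gene stand far above the tiles, and their intervals overlap in every list.

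Peaks at these tRNA genes were among the stronger ones. The 94 occupied genes shared 87 IDR-thresholded peaks, 10.6% of that list, and 10 of the 87 peaks lay within reach of 2 or more tRNA genes. Their signal ran from 77.4 to 363 with a median of 129, against a median of 119 over the 78 peaks at tRNA genes inside protein-coding genes and 105 over the 657 peaks near no tRNA gene. Of 187 pooled peaks at tRNA genes between protein-coding genes, 87 (46.5%, interval 39.5 to 53.7) were in the IDR-thresholded list. The share was 42.6% at tRNA genes inside protein-coding genes, 4.50% near no tRNA gene and 5.49% of all pooled peaks. In replicate 1 the median signal was 36.4 at these tRNA genes, against 32.3 at tRNA genes inside protein-coding genes and 18.9 over all peaks. In replicate 2 it was 38.1 at both kinds of tRNA gene, against 19.1 over all peaks.

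The strongest occupied gene was C04A11.t1, a tRNA-Leu gene with an intron at X:13665555-13665673, 175 bp from the protein-coding gene C04A11.5. Its peak had signal 363 (rank 16) in the IDR-thresholded list, 189 (rank 14) in replicate 1 and 174 (rank 15) in replicate 2. Both replicates thus placed it at almost the same rank, with the pooled summit 25 bp into the gene. W03G11.t1, a tRNA-Lys gene on X, followed with signal 300, and 143 and 156 in replicates 1 and 2. F57F5.t1, a tRNA-Ile gene with an intron at V:12002176-12002260, had signal 264, and 133 and 131 in the replicates, with the summit 12 bp upstream of the gene. It lies 379 bp upstream of the 5′ end of gcy-33, a soluble guanylyl cyclase gene. M02F4.t1 (tRNA-Gly) and M02F4.t2 (tRNA-Glu) are divergently transcribed, with 116 bases between them on X, and shared 1 summit of signal 249 (126 and 123 in the replicates) in that interval. These were the 4 strongest peaks at tRNA genes between protein-coding genes.

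The next members of the 15 highest had signals of 193 to 229. They were T07H6.t2 (tRNA-Ala, 229), F28H6.t1 (tRNA-Arg, 227), ZK678.t1 (tRNA-Leu, 227), F56F3.t1 (tRNA-Arg, 213), F46G11.t1 and F46G11.t2 (tRNA-Pro, sharing 1 summit of signal 212), C42D8.t1 (tRNA-Ile, 208), C33G3.t2 (tRNA-Lys, 205), R04D3.t2 (tRNA-Val, 203) and R01H5.t1 (tRNA-Thr, 193). T07H6.t2 had its summit exactly at the first base of the gene and signals of 133 (rank 41) in replicate 1 and 98.9 (rank 98) in replicate 2. R04D3.t2 ranked higher in replicate 2, with signal 75.5 (rank 214) in replicate 1 and 128 (rank 45) in replicate 2. At the low end of the occupied genes were T01B4.t1 (tRNA-Val, 78.8), rte-2 (tRNA-Glu, 78.6) and T25B6.t2 (tRNA-Thr, 78.5), close to the lowest signal of the whole list, 77.4.

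Some tRNA genes fell just below that level. Among genes without an IDR-thresholded summit the highest pooled signals were at Y54G2A.t5 (tRNA-Asp, 75.3), Y51H4A.t4 (tRNA-Gly, 74.9), T22F7.t1 (tRNA-Tyr, 74.6), B0228.t1 (tRNA-Gln, 72.1) and Y37A1B.t1 (tRNA-Ala, 71.7). Of these 5, T22F7.t1 differed most in rank between the replicates, at 6532 in replicate 1 and 503 in replicate 2. In the IDR-thresholded list few genes lay near the distance limit of 200 bp, with 3 at 151 to 200 bp and 4 at 201 to 300 bp. In the relaxed lists 11 (pooled), 17 (replicate 1) and 20 (replicate 2) genes lay at 201 to 300 bp. Just inside the limit in the IDR-thresholded list lay F46G11.t1 (161 bp from its summit), ZK154.t4 (164 bp) and F42A10.t2 (193 bp), and just outside rte-5 (201 bp), C48C5.t3 (256 bp) and M163.t1 (283 bp). Of the 94 occupied genes, 48 had the summit inside the gene and 35 within 50 bp of it.

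Of the tRNA genes with a replicate 1 summit 81.2% also had a replicate 2 summit, and 86.5% the other way round. The IDR-thresholded list was made from both replicates, so agreement at its genes was largely set in advance. Of the 94 genes in the IDR-thresholded list, 92 had a summit in both replicate lists, and 2, ZK154.t4 and F42A10.t2, in replicate 1 only, where the nearest replicate 2 summit was 258 bp and 214 bp away. Over all 322 genes 147 (45.7%) had a summit in both replicates, 34 in replicate 1 only and 23 in replicate 2 only. Among the 81 genes of the relaxed pooled list alone, 54 were found in both replicates. Using only the 822 strongest peaks of each replicate, 73 genes were reached in both, 10 in replicate 1 only and 16 in replicate 2 only. Ranks of the peaks in the 2 lists had Spearman's rho of 0.839 over the 147 genes and 0.736 over the 92 IDR-thresholded ones, given as a description since neighbouring genes share peaks. The summits of the 2 replicates lay a median of 36 bp apart over the 147 genes.

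**Figure D2:**
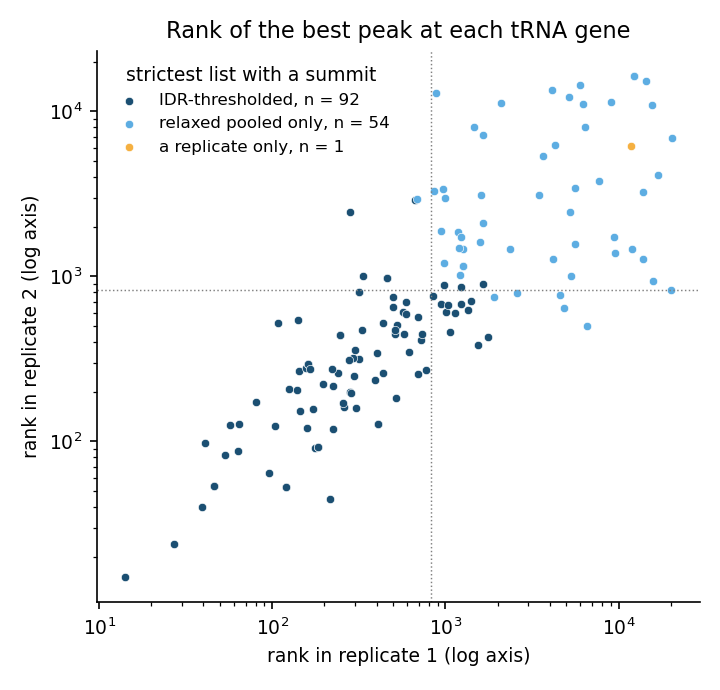
Rank of the strongest peak within 200 bp in replicate 1 (x axis) and replicate 2 (y axis), both log axes, for the 147 tRNA genes with a summit in both; colours give the strictest list that reached the gene, and dotted lines mark rank 822. Points of the IDR-thresholded list keep near the diagonal at high ranks, and those of the relaxed pooled list spread widely.

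The nearest summit often sat over the tRNA gene. At 48 of the 94 occupied genes (51.1%, interval 41.1 to 60.9) the nearest IDR-thresholded summit lay within the transcribed span. It lay upstream at 25 genes and downstream at 21, and a summit shared by neighbouring genes counts for each. The median position was 19 bp from the 5′ end, near the A box. Of the 60 occupied genes with no other tRNA gene within 1000 bp, where a summit is not shared, 40 (66.7%, interval 54.1 to 77.3) had the summit inside the span. Of the 75 occupied tRNA genes inside protein-coding genes, 52 (69.3%, interval 58.2 to 78.6) had the summit inside the span. The median position over these 75 was 18 bp from the 5′ end. The median peak width was 440 bp in the IDR-thresholded list, so a summit does not resolve the A box from the B box or from the start site.

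**Figure D3:**
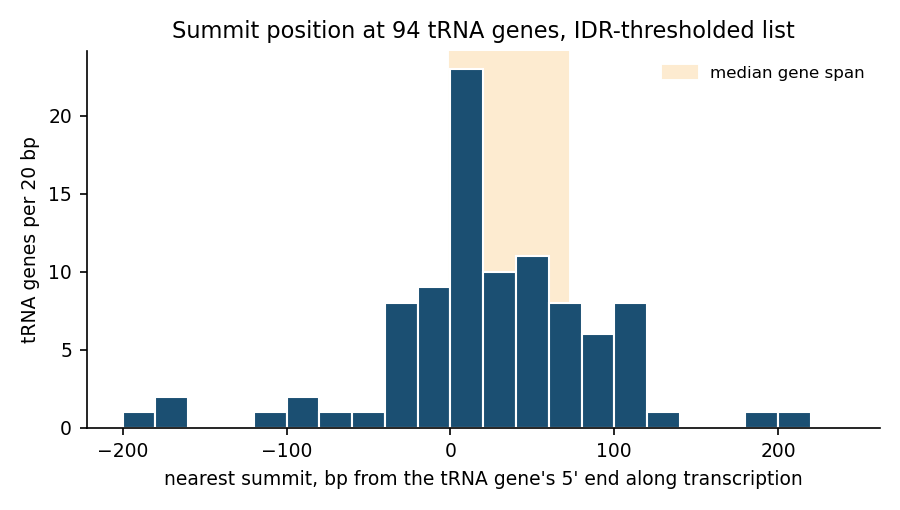
Number of occupied tRNA genes (y axis, per 20 bp) by the position of the nearest IDR-thresholded summit, in bp from the 5′ end of the gene along its transcription (x axis); the shaded band is the median gene span. The histogram is highest just inside the 5′ end, and at 48 of 94 genes the nearest summit lies within the gene.

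All 20 amino acids had at least 1 occupied tRNA gene. The highest shares in the IDR-thresholded list were 10 of 20 for tRNA-Pro (50%, interval 29.9 to 70.1), 5 of 11 for tRNA-Ile (45.5%), 8 of 19 for tRNA-Thr (42.1%) and 8 of 20 for tRNA-Lys (40%). The lowest were 1 of 15 for tRNA-Gln (6.67%, interval 1.19 to 29.8) and 1 of 13 for tRNA-His (7.69%, interval 1.37 to 33.3). The intervals of these highest and lowest isotypes overlap or nearly meet, and with so few genes each no isotype was tested against another. The tRNA-Gln genes were often found below the IDR threshold, with 8 in the relaxed pooled list only. The single occupied tRNA-Gln gene, T03E6.t1, had signal 94.7, with 66.6 (rank 280) in replicate 1 and 27.6 (rank 2437) in replicate 2, and the single tRNA-His gene, Y7A9D.t1, had 82.9, with 48.2 and 43.3. The sequence of Y7A9D.t1 was occupied at 1 of 9 copies between and at 2 of 2 copies inside protein-coding genes. Its unoccupied copies included the neighbours F28H6.t2 to F28H6.t7 on X, which are not independent. The 1 occupied tRNA-Trp gene was sup-24 (86.1, with 39.1 and 46.6), known from genetics as a gene that can mutate to a suppressor of amber stop codons.

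**Figure D4:**
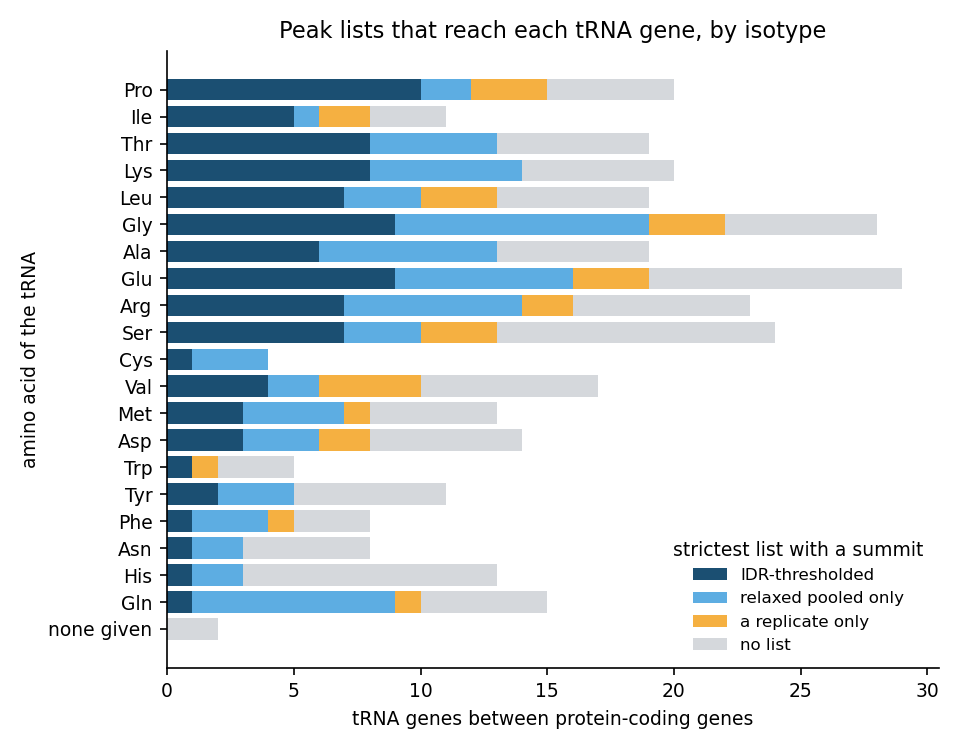
Number of tRNA genes between protein-coding genes (x axis) for each amino acid (y axis), coloured by the strictest peak list with a summit within 200 bp. Rows are ordered by the share in the IDR-thresholded list, from tRNA-Pro at the top to tRNA-Gln and the 2 genes with no isotype at the bottom.

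Occupied and unoccupied genes often had the same sequence. The 322 genes had 130 distinct sequences, and 247 of them had an identical copy elsewhere in the nuclear genome. Of 42 sequences shared by 2 or more of the 322 genes, 33 (204 genes) had occupied and unoccupied copies among the 322 in the IDR-thresholded list, 2 had every such copy occupied and 7 had none. Copies inside protein-coding genes are left out of these counts, and some of them differed: of the 15 copies of C06E4.t1 (tRNA-Gln), none of the 7 between but 3 of the 8 inside protein-coding genes were occupied. No source used here says how the authors treated reads that match several copies, and such reads bear on the gene body more than on its flanks. Genes with an identical copy were occupied in 79 of 247 cases (32%, interval 26.5 to 38), against 15 of 75 (20%, interval 12.5 to 30.4) for genes with none. Some occupied genes, such as C04A11.t1 and F57F5.t1, had no copy identical over the whole gene span. Genes that match only in part were not counted as copies, and reads shared with them were not tested.

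The largest families each held both kinds. Of 17 tRNA-Gly genes identical to C12C8.t5, 6 were occupied, of 17 tRNA-Glu genes identical to Y53C10A.t3, 5, and of 13 tRNA-Lys genes identical to F15D3.t1, 6. The tRNA-Pro family printed above had 24 copies, 13 of them between protein-coding genes, with 6 of those 13 occupied against 0 of the 11 copies inside protein-coding genes, a difference seen after the values were known and not tested. Its occupied copies were F46G11.t1, F46G11.t2, ZK899.t1 (signal 159, with 88.3 and 73.8 in replicates 1 and 2), H06A10.t1 (145, with 69.1 and 78.9), T23F1.t2 (140, with 85.4 and 63.8) and C48C5.t1 (79.7, with 39.7 and 39.1). Of its unoccupied copies, F02H6.t1 (69.7) and C16B8.t1 (65.9) had a pooled peak. F23D12.t1 and Y7A5A.t2 had only weak replicate 2 peaks (19.3 and 16.6), and F23D12.t2 and Y7A5A.t3 had none. C48C5.t3 had only a replicate 2 peak (39.1, rank 884), whose summit it shares with the occupied C48C5.t1. F23D12.t1 with F23D12.t2, Y7A5A.t2 with Y7A5A.t3, F46G11.t1 with F46G11.t2 and C48C5.t1 with C48C5.t3 are divergent pairs. Neither gene of the first 2 pairs was occupied, both genes of the F46G11 pair were, and of the C48C5 pair, with 178 bases between the genes, only C48C5.t1 was.

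The bases just upstream were richer in GC at occupied than at unoccupied genes. The GC content of the 100 bp before the gene had a median of 46% (quartiles 42 to 49.8) at the 94 genes of the IDR-thresholded list, 42% at the 81 of the relaxed pooled list only, 40% at the 29 in a replicate only and 35% (quartiles 30 to 41) at the 118 in no list. The 228 genes outside the IDR-thresholded list together had a median of 38%. The difference in mean GC, occupied minus unoccupied, was 6.77 percentage points over 100 bp, 4.85 over the nearest 50 bp and 3.65 over 200 bp, the last 2 windows added after the data were seen. The medians differed on X and on the autosomes: on X the medians were 45.5% for occupied and 37% for unoccupied genes, and on the autosomes 47% and 42%. In the order from the IDR-thresholded list to no list, the medians stepped down on X, at 45.5%, 40%, 38% and 33%. They also did among genes with and without another tRNA gene within 1000 bp. On the autosomes the order was not strict, at 47%, 44%, 46% (7 genes) and 38%. Among genes with no identical copy the medians were 48%, 46%, 36% (8 genes) and 39.5%. Downstream, the 100 bp after the gene had medians of 29% and 28%, and 100 bp taken 500 bp further upstream had 33% and 34%. The gene bodies themselves had a median of 58.3% in both groups. The distributions overlap, and tRNA genes are not independent, so no test was made.

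Within families of identical genes the upstream difference went the same way. In 30 of the 33 families with both kinds of copy the occupied copies had the higher mean upstream GC, and the median difference, occupied minus unoccupied, was 7 percentage points (range -1.26 to 30). The tRNA-Pro family was among the 3 exceptions, with 40.2% at occupied and 41.4% at unoccupied copies. At tRNA genes inside protein-coding genes the upstream medians were 48% for the 75 occupied and 40% for the 215 unoccupied genes. GC content was higher at stronger peaks away from tRNA genes too: the 100 bp around summits near no tRNA gene had a median of 49% for 657 IDR-thresholded and 40% for 13941 other pooled peaks, against 51% and 44% for peaks at the tRNA genes between protein-coding genes. Base composition of the libraries could not be read from peak lists, and its part in these values was not tested.

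**Figure D5:**
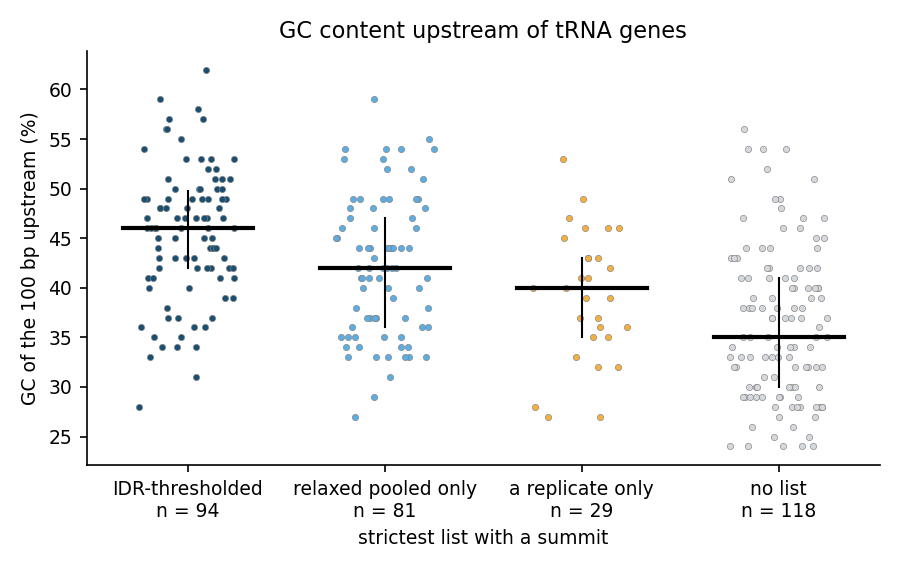
GC content of the 100 bp upstream of each tRNA gene between protein-coding genes (y axis, %), by the strictest peak list with a summit within 200 bp (x axis). Each point is a gene, horizontal bars are medians and vertical bars quartiles; the medians step down across 46%, 42%, 40% and 35%, with wide overlap between the columns.

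The promoter elements were present at occupied and unoccupied genes alike. An A box, searched on the transcribed strand of the gene, was found in all 94 occupied genes and in 220 of the 228 unoccupied ones (96.5%). None of the 8 genes without an A box match was occupied in the IDR-thresholded list (0%, interval 0 to 32.4), and 1 had a pooled summit. The B box core GTTCGANNC was found in 73.4% of occupied and 72.8% of unoccupied genes, and the wider core GTTCNANNC, chosen after the data were seen and the one capitalised in the sequences, in 95.7% and 95.6%. Downstream, a run of at least 4 T within 30 bp was found in 98.9% and 98.2%. In the 60 bp upstream, TATAAA or TATATA was found in 3.19% and 3.95%. Windows of the same length 500 bp upstream held an A box in 3.73%, the 2 B box cores in 1.86% and 2.17% and a TATA-like match in 4.66% of cases. For the T run the windows lay 500 bp downstream and held it in 33.2%. Such matches describe the letters only, searched on 1 strand.

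Occupied genes made up 34 of 148 genes with another tRNA gene within 1000 bp (23%, interval 16.9 to 30.4) and 60 of 174 genes without one (34.5%, interval 27.8 to 41.8). Of 79 neighbouring pairs within 1000 bp, 11 had both genes occupied, 12 had 1 and 56 had neither. Among the 30 divergent pairs 5 had both genes occupied, 1 had a single occupied gene and 24 had neither. The counts in the same order were 2, 5 and 9 for the 16 convergent and 4, 6 and 23 for the 33 tandem pairs. In the pooled list 6 divergent, 8 convergent and 10 tandem pairs had a single occupied gene. Where 2 genes lie close together, 1 summit within 200 bp of both counts for both. The median gap was 184 bp in divergent, 211 bp in convergent and 406 bp in tandem pairs, and the orientations were not tested against each other. Counted as 271 loci, with genes no more than 400 bp apart joined, 84 loci (31%) had an IDR-thresholded summit.

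On chromosome X, 54 of 180 genes (30%, interval 23.8 to 37.1) were occupied in the IDR-thresholded list, against 40 of 142 on the autosomes (28.2%, interval 21.4 to 36.1). A summit in both replicates was less common on X, at 71 of 180 (39.4%, interval 32.6 to 46.7) against 76 of 142 (53.5%, interval 45.3 to 61.5). Peaks on X were nevertheless the stronger ones, with a median signal of 137 over 52 IDR-thresholded peaks at these genes against 104 over 35 on the autosomes, where all peaks of the list had medians of 112 on X and 106 on the autosomes. Of the 15 highest genes 13 were on X. Single autosomes ranged from 5 of 30 genes on V (16.7%, interval 7.34 to 33.6) to 10 of 22 on III (45.5%, interval 26.9 to 65.3). The X-to-autosome differences were not tested.

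Flanks that occur more than once in the genome went with fewer peaks. The share of 31-base words in the 200 bp on each side that occur once in the nuclear genome reached 90% for 251 genes. Of these, 77 (30.7%, interval 25.3 to 36.6) were occupied in the IDR-thresholded list and 147 (58.6%, interval 52.4 to 64.5) in the pooled list. For the 71 genes with less unique flanks the counts were 17 (23.9%, interval 15.5 to 35.0) and 28 (39.4%, interval 28.9 to 51.1). Of the 118 genes in no list, 38 had such flanks (32.2%), against 17 of the 94 occupied genes (18.1%). The occupied share stayed within its interval when the 71 genes were left out.

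A minority of the occupied genes lay at protein-coding promoters. Of 91 tRNA genes whose midpoint lay in a promoter window, 1000 bp upstream to 200 bp downstream of a protein-coding 5′ end, 31 were occupied (34.1%, interval 25.2 to 44.3), against 63 of 231 elsewhere (27.3%, interval 21.9 to 33.4). The median distance to the nearest protein-coding 5′ end was 1376 bp for occupied and 1858 bp for unoccupied genes. Only 1 of the 322 lay within 200 bp of a snoRNA, snRNA, microRNA or rRNA gene, and piRNA genes were not searched. A list of 31 genes, made for RNA polymerase III, its factors and tRNA processing, was of mixed content, since it also holds sftb-1, a splicing factor gene, and larp-1, whose La-related protein binds mRNA. Of its 30 genes in the annotation 1, larp-1, was reached in its promoter window by an IDR-thresholded summit (signal 175, with 81.6 and 92.3 in replicates 1 and 2). The background over all 19973 protein-coding genes was 3.29%, and 1 of 30 is near that share. No other listed gene was reached, which says nothing of polymerase III genes outside the list. In the relaxed pooled list, which can hold background, 15 of the 30 had a summit in the window, against 23.5% of all protein-coding genes, and this difference was not tested.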

How the data were processed

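ChIP-seq of GFP- and FLAG-tagged ZTF-16 was measured in 2 biological replicates of late embryos, placed in 1 group by the labels. The authors deposited narrowPeak lists in ce11, each peak with a signal value and a summit offset, per the notes deposited with the files: a relaxed list for each replicate, called against 1 control file, 1 for both pooled, and the IDR-thresholded list. Which aligner, IDR threshold and peak caller were used, and how multi-mapping reads were handled, is not stated in the labels or notes. The lists hold no read counts, and depth is unknown.

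Summits, counted from 1, were matched to tRNA and protein-coding genes of Ensembl release 115 on the 6 nuclear chromosomes. Sequences and isotypes are RefSeq's for the same assembly. Shares have Wilson 95% intervals and differences Newcombe intervals. No p-values were computed, since genes share peaks and there is no second condition. The matching step was tested on simulated summits. Identical copies were found by comparing whole gene spans. The A box pattern was a degenerate consensus. Unique words were 31 bases long. Named genes were the 15 highest signals, the strongest of each isotype, the 3 lowest, the 5 highest pooled without an IDR-thresholded summit, the 3 on each side of 200 bp and the 4 largest mixed families; other family members were named after their values were seen. The genes and lists were chosen with earlier results of these data known. Alternatives varied the distance, list, gene rule, copies and replicates. Lists in ce10 were not used. Python 3.11.15, numpy 2.4.6, pandas 2.3.3, scipy 1.17.1 and matplotlib 3.10.9 were used.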

Additional observations from a re-analysis of the deposited data

How the results depend on the processing

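Of 63 alternatives, 44 left their value within the interval or spread of the main one and 19 moved it, as follows. With the summit required inside the gene, occupied shares were 14.9% in the IDR-thresholded, 26.7% in the pooled, 23.6% in the replicate 1 and 26.7% in the replicate 2 list. At 100 bp the replicate 1 share was 50.6%, and at 500 bp the pooled, replicate 1 and replicate 2 shares were 61.2%, 63.4% and 62.1%. With only peaks above the median signal, 18.6% (IDR-thresholded) and 47.8% (pooled) were occupied. Among genes with no identical copy the shares were 20%, 44.0%, 46.7% and 42.7% in the same 4 lists, and 10 of 19 amino acids had an occupied gene. Both replicates reached 22.7% of the genes with the 822 strongest peaks of each and 53.1% at 500 bp. The share of occupied genes with the nearest summit inside the span was 66.7% among those with no other tRNA gene within 1000 bp. The wider B box core, added after the data were seen, was found in 95.7% of the genes and not 73.0%. The settings for distance, for the peaks used and for the B box core admit fewer or more matches by construction. The settings for genes with no identical copy and for genes with no other tRNA gene nearby use only part of the genes. Why their values differ was not tested. The upstream GC difference kept its sign, at 4.85 percentage points over 50 bp and 3.65 over 200 bp. Both values were counted among the 44, though they were lower than the 6.77 over 100 bp.

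Leaving out a replicate, with the 822 strongest peaks of the other used alone, gave occupied shares of 25.8% to 27.6%. The differences from tRNA genes inside protein-coding genes were then 2.33 to 2.47 percentage points, and 49.4% to 58.4% of occupied genes had the summit inside the span. No paired analysis was possible because there is 1 group. Peak lists without read numbers cannot show whether a gene in no list lacked the protein or lacked mappable reads.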
